A study of Arabidopsis thaliana with 24 samples.

Results

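Seeds at stage 10 were compared with seeds at stage 8, in 3 arrays each, 6 of the 24 arrays of a developmental series of Arabidopsis thaliana siliques and seeds. The members are the arrays whose tissue label is seeds of stage 10 or stage 8 without the silique. The 3 arrays of seeds stage 9, which lie between them, served to ask which changes went the same way in both steps, and arrays of seeds stages 6 and 7 are set beside some results. All groups were of the accession Col-0 with no treatment labelled, and the RNA was total RNA of whole seeds, so embryo, endosperm and seed coat were read together. Each array was an Affymetrix ATH1, which reads a transcript with a set of short probes. The labels number the stages without giving days, give growth conditions for stage 3 only, and leave unsaid whether the 3 arrays of a stage hold seeds of different plants. The p-values therefore rest on array-to-array spread that may be technical alone.

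In late maturation a seed has already laid down its storage proteins and oil, and it loses water until it can be kept dry. Proteins of the late embryogenesis abundant (LEA) family, small heat shock proteins and sugars of the raffinose family build up in this phase and are known for protecting membranes and proteins in the dry state. Chloroplasts, which are green and active in the embryo while oil is made, lose their chlorophyll, and the seed coat dies. The mature dry seed keeps a store of messenger RNA that is read again when it takes up water.

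The values are signal intensities that the authors had scaled per array, so each is relative to the rest of its array. Median signals were 33.6 to 34.7 on the stage 8 arrays, 32.6 to 34.2 on the stage 9 arrays and 32.7 to 35.8 on the stage 10 arrays, and log2 values of replicate arrays correlated at 0.967 to 0.977 over probe sets, which are not independent replicates. Seed markers were bright at every stage. The vicilin-like storage protein gene PAP85 had a signal of 8923 ± 877 at stage 8, 11461 ± 1602 at stage 9 and 11060.0 ± 1031 at stage 10 (SD, n = 3). None of 10 markers of silique wall, guard cells and pollen was called between stages 10 and 8, against 4.41% of all tested probe sets. So few markers cannot be told from that share. ECS1 of the silique wall was at most 22.3. In the step from stage 9 to stage 10, 1 of these markers was called as lower, against 0.937% of all tested probe sets. The arrays differed in the control for 25S ribosomal RNA, which read 4717, 119 and 4242 at stage 8, 109 to 111 at stage 9, and 3702, 933 and 2887 at stage 10. The results below are therefore also given without the 4 arrays above 1000 where that ends a call. This leaves 1 array at stage 8 and 1 at stage 10, which read 119 and 933 for 25S. A call lost to fewer arrays and one lost to the 25S difference cannot be told apart there. The part of the 25S difference in the other results was not tested. The 3′ to 5′ signal ratio of actin, a sign of RNA integrity, was 7.07 ± 0.229, 5.23 ± 0.775 and 4.93 ± 0.324 at stages 8, 9 and 10 (SD, n = 3), and that of ubiquitin 3.02 ± 0.345, 2.75 ± 0.185 and 3.41 ± 0.161.

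More transcripts were lost than gained between stage 8 and stage 10. Of 16967 probe sets tested 749 were called (4.41%), of which 590 fell (3.48% of those tested) and 159 rose (0.937%), where a call required a Benjamini-Hochberg adjusted p under 0.05 in limma and a change of at least 2-fold on the scale log2(signal + 7), whose offset of 7 shrinks the fold of dim genes. Genes of photosynthesis, chlorophyll synthesis, plastid fatty acid synthesis and seed coat flavonoids were among those that fell, and a set of very bright seed genes with a few genes of the plastid genome was among those that rose. The count of risers depends on how dim signals are treated: it was 337 with no offset, 54 with an offset of 28 and 253 with no filter. It was also higher without the 4 arrays of high 25S signal, which leaves 1 array at stage 8 and 1 at stage 10, and the reason was not tested. Of the fallers 81 changed by at least 4-fold, and 5 of the risers did. The probe sets that fell held 1.12% of the summed signal at stage 10 against 3.74% at stage 8, and those that rose held 1.72% at stage 10 against 0.703% at stage 8. As these sets were chosen on the same arrays, the direction of both shares was given by the choice, and only their size is described. The median difference of all tested probe sets was 0.05 on the log2 scale. In whole seeds, fewer cells of a type and less RNA per cell cannot be told apart.

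Most of these changes went the same way in both steps. Of the 159 risers 131 (82.4%) were higher at stage 9 than at stage 8 and higher again at stage 10, which is 0.772% of the probe sets tested. Of the 590 fallers 497 (84.2%) were lower at each step, or 2.93% of those tested. Any stage 9 mean that lay between the other group means counts here, however close it was to either, and the steps share the stage 9 arrays, so these counts describe the data and carry no test of their own. Taken alone, the step to stage 9 had 178 probe sets that rose (1.05%) and 443 that fell (2.61%), and the step to stage 10 had 132 that rose (0.778%) and 159 that fell (0.937%). Few members of the same-way sets passed the threshold in both steps, 1 of the 131 risers and 19 of the 497 fallers, and 100 and 268 passed it in neither, so that only the sum of the steps reached 2-fold.

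**Figure D1:**
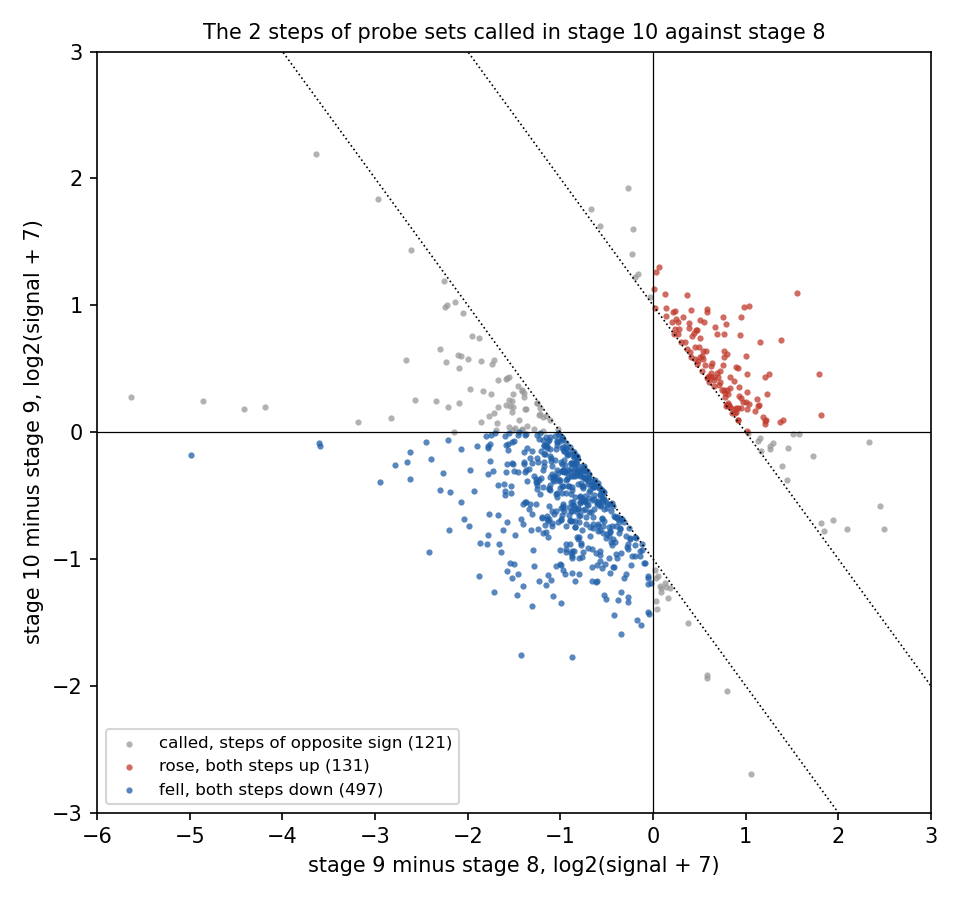
Each point is a probe set called in stage 10 against stage 8, with the difference of stage 9 minus stage 8 on the horizontal axis and of stage 10 minus stage 9 on the vertical axis, both in log2(signal + 7). The dotted lines mark a total change of 2-fold; 131 risers (red) and 497 fallers (blue) lie in the quadrants where both steps share a sign, and grey points are the other called probe sets.

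The transcripts that rose to the highest signals had come up before stage 8 and went on rising. BGLU19, a beta-glucosidase gene, read 2257, 2080.2 and 2001 at stage 8, 4673, 5198 and 4996 at stage 9 and 5509, 5861 and 6995 at stage 10. All 3 stage 10 arrays lay above all stage 9 arrays, and these above all stage 8 arrays. Stage 10 and stage 8 arrays did not overlap in 37.3% of all tested probe sets, and the share with all 3 stages apart was not counted. The log2 difference of BGLU19 between stage 10 and stage 8 was 1.53 ± 0.15 (SE, adjusted p = 2.7e-08). Most of it, 1.23, lay in the step to stage 9. The step to stage 10 was 0.30 and did not pass (adjusted p = 0.18). AT1G14940 read 1164, 1285 and 1142, 2681, 2599.5 and 2763 and 4222, 4147 and 4840.2 at stages 8, 9 and 10, with no overlap between any stages and a difference of 1.87 ± 0.14 (adjusted p = 1.0e-10). Its neighbour on the chromosome, AT1G14930, read 1704, 1427 and 1527 at stage 8, 2616, 2751 and 2476 at stage 9 and 3503, 3547 and 4338 at stage 10, again in separate ranges, and rose by 1.28 ± 0.14 (adjusted p = 9.4e-08). With quantile normalization AT1G14930 came to 0.95 and lost its call. At stage 6 the means of BGLU19, AT1G14940 and AT1G14930 had been 2.29, 3.44 and 3.35, near the lowest signals of the array.

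AT3G21380 had nearly equal steps. Its signals were 620.4, 662 and 645 at stage 8, 1194, 1304 and 1254 at stage 9 and 2343, 2339 and 2364 at stage 10. The spread within each stage was small beside the gaps between stages, and the differences were 0.95 for the step to stage 9, 0.91 for the step to stage 10 and 1.86 ± 0.13 in all (adjusted p = 6.3e-11). AT1G47980 read 719, 762 and 914, 1209, 1150.4 and 1324 and 1857, 1576 and 1855 at stages 8, 9 and 10 and rose by 1.14 ± 0.12 (adjusted p = 3.2e-08). Its ranges did not overlap either. The gene table gives no symbol for AT1G14940, AT1G14930, AT3G21380 or AT1G47980. These genes and BGLU19 were the 5 brightest risers at stage 10.

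**Figure D2:**
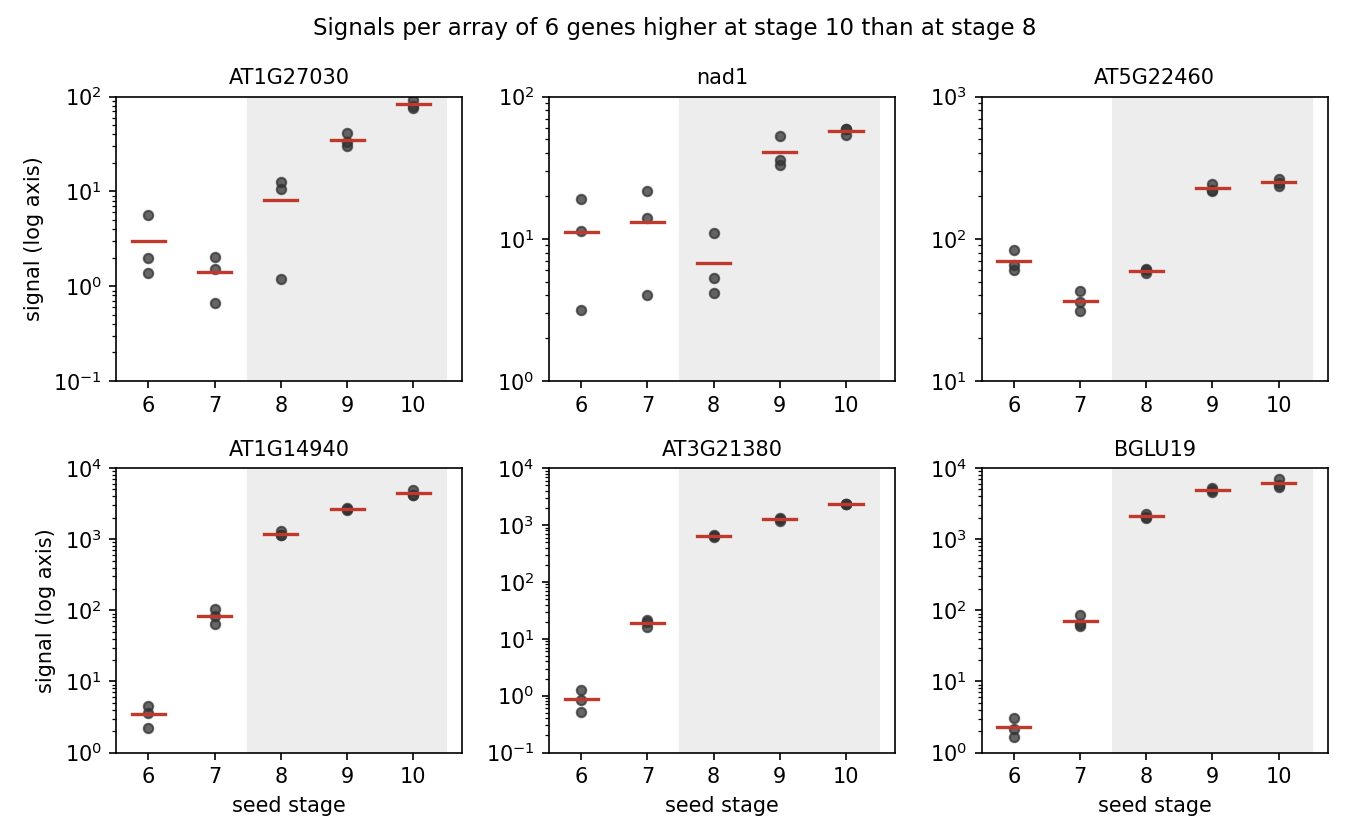
Signals on each array (points, log axis) and their means (bars) for 6 risers at seed stages 6 to 10, with stages 8 to 10 shaded. AT1G14940, AT3G21380 and BGLU19 were the brightest of the 6 at stage 10, whereas AT1G27030 and nad1 stood near 10 or below at stage 8, and AT5G22460 made nearly its whole change by stage 9.

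The largest fold changes upward belonged to dimmer genes. AT1G27030 read 1.2, 12.5 and 10.7 at stage 8, 30.4, 32.9 and 41.2 at stage 9 and 78.8, 92.6 and 75.8 at stage 10, and it was the only riser that passed the threshold in both steps. Its difference was 2.66 ± 0.26 (adjusted p = 2.1e-08), and as its stage 8 signals were near background this ranged from 1.62 to 3.92 over the alternatives, chiefly with the offset. AT2G43580 read 1.43, 9.33 and 12.9, 20.7, 18.7 and 26.4 and 46.2, 53.6 and 51.5 at stages 8, 9 and 10, in ranges that did not overlap, and rose by 2.04 ± 0.26 (adjusted p = 1.5e-06). Its neighbour AT2G43590, named after its values were seen, also rose but turned at stage 9, with means of 10.3, 80.6 and 50.5. Without the 4 arrays of high 25S signal AT2G43590 kept a difference of 1.03 and was no longer called. AT5G22460 read 57.3, 61.5 and 59.8 at stage 8, 242, 221 and 218 at stage 9 and 265, 236 and 249 at stage 10, so that it changed by 1.81 in the step to stage 9 and by 0.13 in the step to stage 10.

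AT2G27240 split its change evenly, with 34.5, 41.2 and 31.1 at stage 8, 62.6, 70.6 and 65.3 at stage 9 and 125, 129.7 and 120.4 at stage 10 and a total of 1.64 ± 0.15 (adjusted p = 8.6e-09). AT4G36500 read 5.28, 24.7 and 19.7 at stage 8, 27.9, 36.8 and 40.8 at stage 9 and 55.8, 55.8 and 83.4 at stage 10, a difference of 1.70 ± 0.24 that fell just short of 2-fold, at 0.98, without the 4 arrays of high 25S signal. AT4G37220 was the least certain of the 12 leading risers. Its arrays read 5.15, 3.06 and 8.69, 13.9, 28.4 and 5.46 and 30.8, 21.9 and 48.7 at stages 8, 9 and 10, so that stage 9 overlapped both neighbours, and its difference of 1.66 ± 0.40 lost its call without those 4 arrays, at 1.52, and with an offset of 28. NRT2.5, a nitrate transporter gene named after its values were seen, was besides BGLU19 the only nuclear gene with a symbol among the 131. It had means of 22, 39.2 and 54.7 at stages 8, 9 and 10 and a difference of 1.13 ± 0.20, or 0.78 and no call without those arrays.

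Most LEA genes differed by less than 2-fold, and most were higher at stage 10. Of 25 tested genes of the list 2 rose (0.937% of all tested probe sets did) and none fell, with a median difference of 0.35 beside 0.05 for all probe sets, and 19 of the 25 were higher at stage 10. In 24 of the 25 the stage 10 and stage 8 arrays did not overlap, against 37.3% of all tested probe sets. With quantile normalization the median was 0.16 with the same counts. AT3G22490, a seed maturation protein gene, read 627, 537 and 542 at stage 8, 997, 983 and 1005 at stage 9 and 1518, 1509 and 1568 at stage 10. Its stages were well apart, and it rose by 1.42 ± 0.19 (adjusted p = 1.6e-06). AT5G27980 read 8.31, 3.49 and 2.95, 14.3, 3.62 and 4.04 and 22.3, 11.2 and 26.3 at stages 8, 9 and 10, all among the low signals of the array. Its difference of 1.16 ± 0.29 was called with all arrays but reached only 0.79, with no call, without the 4 arrays of high 25S signal. M17 missed the fold threshold at 0.99 ± 0.14 (adjusted p = 7.7e-06) but was called under 8 alternatives. M10 had 3111 ± 264, 5797 ± 343 and 5801 ± 214 at stages 8, 9 and 10, so that its whole difference of 0.90 ± 0.08 lay in the step to stage 9.

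Some LEA genes went opposite ways in the steps. The dehydrin gene LTI30 read 2999.6, 3383 and 3291 at stage 8, 6409, 6680.3 and 6058 at stage 9 and 3924, 4149.7 and 3418 at stage 10. Stage 9 was the highest, with a difference of 0.98 to stage 9 and of -0.74 to stage 10. COR47, another dehydrin gene, had 94.9 ± 7.58, 188 ± 13.5 and 61 ± 4.84 at stages 8, 9 and 10, and differences of 0.94 and -1.52 for the steps. The lowest total of the list was that of AT2G44060, at -0.97 ± 0.10, which was not called, except after centring on reference genes or under 3 other alternatives. The brightest, AT3G15670, stood at 9408 ± 1122 at stage 8, 12077 ± 1859 at stage 9 and 11816 ± 1172 at stage 10, a total difference of 0.33 ± 0.11.

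Storage protein genes differed by less than 2-fold. Of 7 tested none was called, against 4.41% of all tested probe sets. Their median was -0.22, or -0.04 without the 4 arrays of high 25S signal. The differences lay between -0.69 (AT1G07750) and 0.31 (PAP85), of which 3 were positive, or 1 with quantile normalization. AT2G28680, at -0.56, ranged from -1.18 to -0.23 over the alternatives. Of 4 oil body genes 1 fell, OLEO3, for an oleosin of the oil body coat, against 3.48% of all tested probe sets. It read 3520.1, 3177 and 3314 at stage 8, 1483, 1737 and 1573 at stage 9 and 1395, 1436 and 1280.1 at stage 10, with its stage 8 arrays far above the others, and its difference was -1.28 ± 0.07 (adjusted p = 3.4e-13). The other 3 oil body genes, AT2G25890, AT3G01570 and AT3G18570, had differences of 0.26, 0.24 and 0.15, and with quantile normalization only 1 of the 4 stayed positive.

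Heat shock proteins and chaperones had a median difference of 0.40 over 11 tested genes, with 1 that rose and 1 that fell. Among all tested probe sets 0.937% rose and 3.48% fell. AT1G53540, from the small heat shock proteins of the list, read 54, 51.3 and 53.6 at stage 8, 64.5, 70.2 and 66.2 at stage 9 and 103, 121 and 117 at stage 10, with the larger gap after stage 9. Its difference of 1.01 ± 0.20 (adjusted p = 3.3e-04) stood at the 2-fold limit and was between 0.81 and 1.14 under the alternatives. Cpn60beta3, a chaperonin subunit gene of the chloroplast, fell by 1.06 at low signals (24.3 ± 6.51 at stage 8, 11.1 ± 7.16 at stage 9, 8.54 ± 5.82 at stage 10). It lost its call under 5 alternatives. AT1G54050 dipped at stage 9, with 427, 389.7 and 424 at stage 8, 233, 203 and 254 at stage 9 and 805, 719 and 707 at stage 10. Its step to stage 10 was 1.67 (adjusted p = 1.9e-11), while its total of 0.83 ± 0.10 was not called. AT5G37670 had the same form, with means of 167, 119 and 261. Without the 4 arrays of high 25S signal 3 genes of this list were called as higher in place of 1.

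Chloroplast genes are given by the genome that carries them, a grouping made after the values were seen. The 69 tested genes of the plastid genome had a median difference of 0.14. Of these 5 rose and none fell, against 0.937% and 3.48% of all tested probe sets. The largest was ndhG, for a subunit of the plastid NADH dehydrogenase-like complex, at 214, 217 and 186 at stage 8, 573, 561 and 389 at stage 9 and 651, 809 and 619 at stage 10. The stage 8 arrays lay apart from the rest, and the difference was 1.71 ± 0.14 (adjusted p = 4.5e-10). ndhF, of the same complex, read 50.5, 74.9 and 45.8, 139.5, 124 and 155 and 210.4, 281 and 116 at stages 8, 9 and 10, so that stages 9 and 10 overlapped, and rose by 1.65 ± 0.34 (adjusted p = 6.0e-04). The ribosomal protein gene rps14 rose by 1.38 ± 0.19, rpoB, for a subunit of the plastid RNA polymerase, by 1.22 ± 0.15 and petD, for a subunit of the cytochrome b6f complex, by 1.02 ± 0.19. petD was at the 2-fold limit and made its change by stage 9 (1.01 and 0.01 for the steps). It lost its call under 7 alternatives, among them leaving out the arrays of high 25S signal. The plastid genes were not uniform: by adjusted p alone 20 were higher and 10 lower at stage 10. Of all 16967 tested probe sets 2504 were higher and 2894 lower by that rule. The lowest plastid gene, psaC for a photosystem I subunit, was at -0.69 ± 0.12.

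All 14 tested genes of the mitochondrial genome, a group also formed after the values were seen, had a positive difference. The range was 0.07 to 1.08 and the median 0.43, beside 0.05 for all tested probe sets. Each gene is read by its brightest probe set. By adjusted p alone 7 of the 14 were higher, as were 2504 of all 16967 tested probe sets. The 1 called was nad1, for a subunit of respiratory complex I. The 7 probe sets of nad1 did not agree. The largest difference, in a dim one, came from 11, 5.27 and 4.13 at stage 8, 35.7, 52.9 and 33 at stage 9 and 59.4, 59.1 and 53.3 at stage 10, a total of 2.25 ± 0.30 (adjusted p = 2.6e-06). The brightest rose by 1.08 ± 0.18 and was no longer called, at 0.91, without the 4 arrays of high 25S signal. Another probe set rose by 1.04 ± 0.16 but lost its call under 5 alternatives, and the other 4 had differences of 0.19 to 0.62. Of the 2 probe sets of nad5, for another subunit of complex I, the dimmer rose by 1.07 ± 0.19 (adjusted p = 1.2e-04), or 0.64 with no call without those 4 arrays, and the brighter had 0.49 ± 0.13. How the RNA was primed for labelling, which bears on transcripts of organelles, is not stated by the labels or notes.

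**Figure D3:**
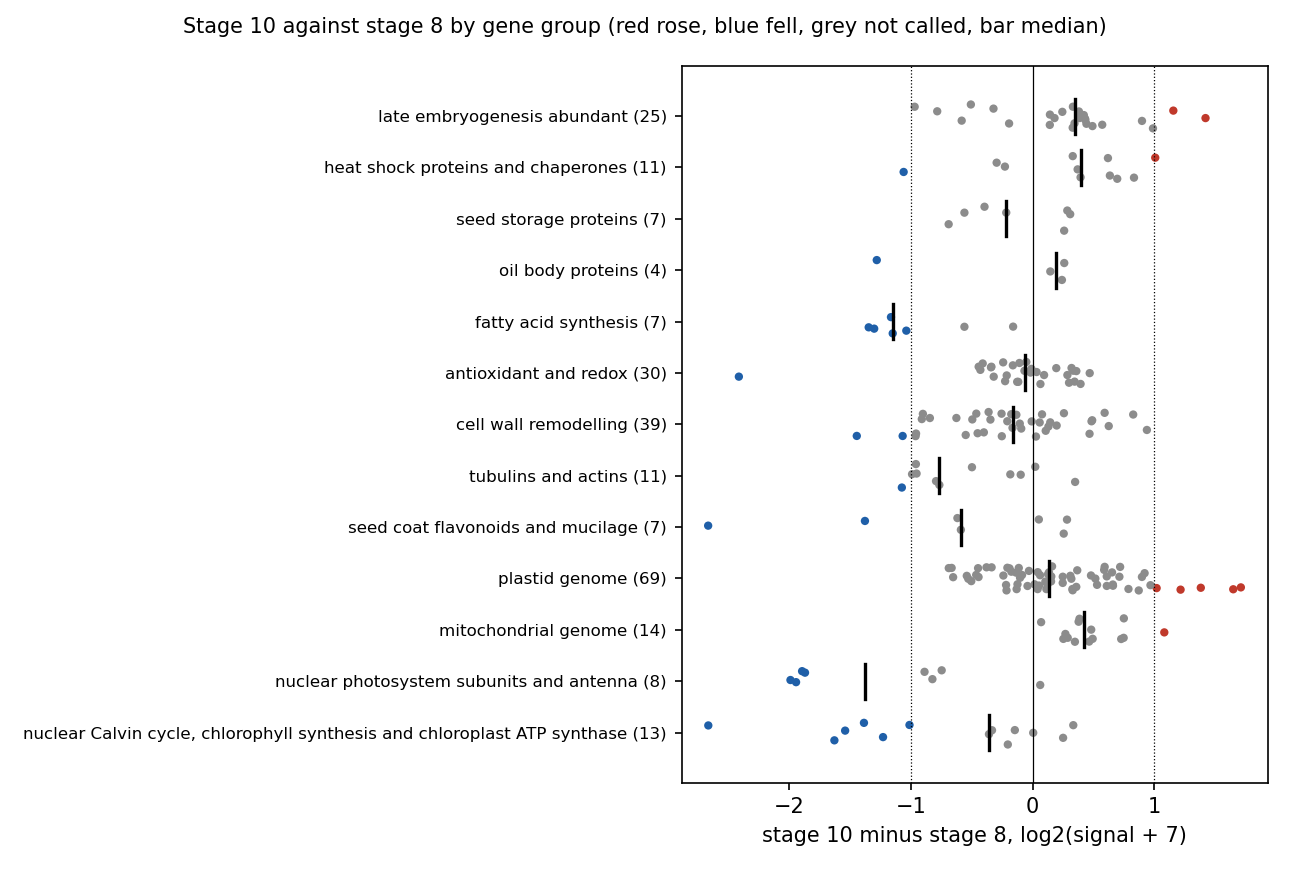
Differences of stage 10 minus stage 8 in log2(signal + 7) for the tested genes of 13 groups (the count in parentheses), 1 point per gene and a bar at the median. The 8 nuclear photosystem and antenna genes have a median of -1.38, the 7 fatty acid synthesis genes one of -1.15 and the 69 plastid genome genes one of 0.14; the 4 lowest groups on the page were formed after the values were seen.

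Nuclear genes of the photosystems and their antenna fell or were lower, with 1 exception. Of 8 tested 4 fell, against 3.48% of all tested probe sets, and none rose. Their median was -1.38, in a group formed after the values were seen. The photosynthesis list made by keyword, which shares 5 genes with it and adds RCA, had 2 of 6 that fell and a median of -0.86. PSBW, for a small subunit of photosystem II, read 595, 622 and 598 at stage 8, 347, 291 and 344 at stage 9 and 174, 126 and 146 at stage 10. Each stage lay below the one before, and the total was -1.99 ± 0.09 (adjusted p = 4.4e-15). PSBY, of the same photosystem, read 389, 349 and 416, 169, 149.7 and 172 and 91.1, 110.3 and 99.2 at stages 8, 9 and 10 and had a difference of -1.87 ± 0.07 (adjusted p = 1.0e-16). The photosystem I genes PSAE-1 and PSAN fell by 1.94 and 1.89. The antenna genes LHCB4.1, LHCB4.3 and LHCB4.2 were lower by less than 2-fold, at -0.89, -0.82 and -0.75, each with an adjusted p under 0.05. That limit of adjusted p was passed by 5398 of all 16967 tested probe sets. PSB27, for a photosystem II assembly factor, had 1600.2 ± 69.5 at stage 10 against 1533 ± 109 at stage 8, a difference of 0.06 ± 0.07.

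Chlorophyll synthesis, the Calvin cycle and the chloroplast ATP synthase were followed in 13 nuclear genes. Of these 6 fell, against 3.48% of all tested probe sets, and none rose, with a median of -0.36. AT1G74470, for geranylgeranyl reductase, which makes the side chain of chlorophyll, read 371, 384 and 387 at stage 8, 136, 116 and 134 at stage 9 and 51.2, 57.5 and 53.8 at stage 10. It fell in both steps, by 1.52 and 1.15, and its total of -2.66 ± 0.06 had an adjusted p of 1.9e-20. PRK, for phosphoribulokinase of the Calvin cycle, read 157, 145 and 139, 49.7, 57.6 and 65.4 and 50.6, 39.6 and 38.9 at stages 8, 9 and 10 and fell by 1.63. ATPC1, for the gamma subunit of the ATP synthase, fell by 1.54, and PORB, for protochlorophyllide oxidoreductase, by 1.39. CHLM, for a methyltransferase of chlorophyll synthesis, fell by 1.23, or 0.86 with no call without the arrays of high 25S signal. SBPASE, for sedoheptulose bisphosphatase, was at -1.01 ± 0.11 and lost its call under 6 alternatives. RCA, for Rubisco activase, had a difference of -0.36 ± 0.09 and was not called. HEMA2, CHLI2 and HEME1 were not called either and had positive differences, of 0.34, 0.25 and 0.006. HEMB1, HEME2 and ATPC2, also not called, had -0.20, -0.33 and -0.15. The fall was thus that of some members and not of the whole group.

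Plastid fatty acid synthesis was lower throughout its list. Of 7 tested genes 5 fell, against 3.48% of all tested probe sets. All 7 had a negative difference, with a median of -1.15. AT2G34590, for a subunit of plastid pyruvate dehydrogenase, read 306, 327 and 314 at stage 8, 157, 196 and 187 at stage 9 and 96.3, 137 and 131 at stage 10. The stages followed each other without overlap, and the total was -1.35 ± 0.09 (adjusted p = 1.1e-11). AT1G24360, for ketoacyl-ACP reductase, read 418, 476 and 406, 213, 238 and 221 and 193, 159 and 164 at stages 8, 9 and 10 and had a difference of -1.30 ± 0.09. AT5G10160 and AT2G22230, for hydroxyacyl-ACP dehydratases, fell by 1.16 and 1.04. AT4G13050, for an acyl-ACP thioesterase, fell by 1.15 at low signals but turned at stage 9, with means of 36.1, 8.79 and 12.9, and at -1.11 was not called without the arrays of high 25S signal. The thioesterase genes FaTA and FATB had differences of -0.56 and -0.16. By stage 8 these genes were already far below their level at stage 6, where AT2G34590 had averaged 1270.4 and AT1G24360 1669.

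The gene for ATP-citrate lyase subunit A, which supplies cytosolic acetyl-CoA, fell in 2 copies, ACLA-1 at -1.05 ± 0.06 and ACLA-2 at -1.02 ± 0.12, both at the limit of a call. ACLA-1 lost its call under 3 alternatives, among them leaving out the arrays of high 25S signal, and ACLA-2 under 5. GPDHp, for plastidic glycerol-3-phosphate dehydrogenase, fell by 1.30. ALDH11A3, for a glyceraldehyde-3-phosphate dehydrogenase that is not phosphorylating, read 226, 238 and 258, 97.3, 120.1 and 100.1 and 51.4, 48.7 and 35.1 at stages 8, 9 and 10 and fell by 2.26 in equal steps. SBE2.2, for a starch branching enzyme, fell by 2.01 to signals of 3.28, 6.36 and 3.66 at stage 10, against 43.6, 34.2 and 39 at stage 8. ACLA-1, ACLA-2, GPDHp, ALDH11A3 and SBE2.2 were picked among the called genes with a symbol after their values were seen.

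Of 7 tested genes for seed coat flavonoids and mucilage 2 fell, against 3.48% of all tested probe sets, and 3 had a positive difference. Those that fell, BAN and DFR, are both of flavonoid synthesis, which colours the seed coat. CHIL, for a chalcone isomerase-like protein and not on that list, read 133, 169 and 175 at stage 8, 6.65, 6.7 and 6.74 at stage 9 and 5, 4.84 and 7.41 at stage 10. It had reached the bottom of the signal range by stage 9, so its difference of -3.70 ± 0.11 (adjusted p = 2.3e-18) varied between -4.81 and -2.46 over the alternatives. BAN, for anthocyanidin reductase, which makes the precursors of seed coat tannins, read 188, 246 and 205, 43.6, 45.1 and 34.6 and 46, 22.8 and 18.8 at stages 8, 9 and 10 and fell by 2.67 (adjusted p = 6.0e-13), most of it by stage 9. DFR, for dihydroflavonol reductase, which acts earlier in the pathway, read 269.8, 212 and 216, 127, 119.6 and 119 and 82.2, 84.3 and 87.7 at the same stages, in separate ranges, and fell by 1.38 (adjusted p = 8.1e-12). The median of the list was -0.59. Of the mucilage genes ARA12 had a difference of 0.05 ± 0.07 and AT2G22900 one of -0.62 ± 0.10. DELTA-VPE, for a vacuolar processing enzyme known for cell death in the seed coat, read 611, 776 and 681 at stage 8, 247, 239 and 248 at stage 9 and 192, 189 and 204 at stage 10 and fell by 1.78. It was named after its values were seen.

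**Figure D4:**
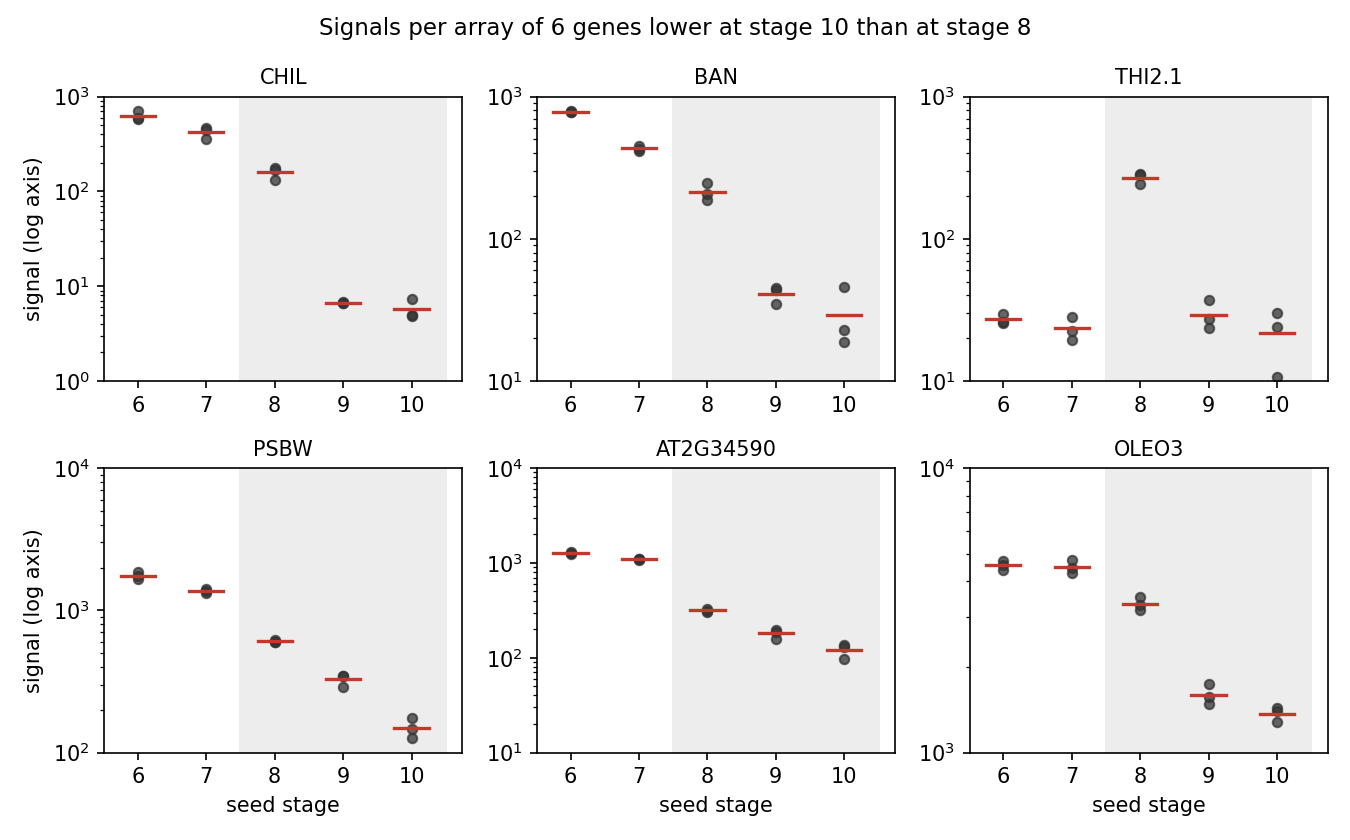
Signals on each array (points, log axis) and their means (bars) for 6 fallers at seed stages 6 to 10, with stages 8 to 10 shaded. CHIL, BAN, PSBW and AT2G34590 declined from stage 6 onward, OLEO3 held its level until stage 7, and THI2.1 was high at stage 8 alone.

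The largest falls of all were nearly complete at stage 9. AT1G56100 read 605, 893 and 632 at stage 8, 17.9, 14.1 and 14 at stage 9 and 11.7, 1.61 and 40.3 at stage 10, and its difference of -5.17 ± 0.31 was that of a bright gene dropping among the lowest signals. On the log scale stage 10 was just below stage 9, but its arrays spread on both sides of the stage 9 arrays. AT5G47350 read 334, 291 and 268, 17, 16.2 and 20.9 and 16, 23.6 and 11.5 at stages 8, 9 and 10, a total of -3.69 ± 0.17. THI2.1, for a thionin, a small antimicrobial peptide, read 244, 279 and 283 at stage 8, 23.6, 37.2 and 27.1 at stage 9 and 10.7, 30.2 and 23.8 at stage 10 and fell by 3.33 (adjusted p = 1.1e-13). AT5G47350 and THI2.1 were transient: their stage 6 and 7 means were 23.3 and 10.7 for AT5G47350 and 27.2 and 23.4 for THI2.1, close to their levels at stage 10. AT4G12890, AT5G39130, AT1G09750, AT5G51950 and AT5G38520 fell by 3.00, 2.76, 2.61, 2.60 and 2.59, and each averaged at most 13.9 at stage 10, against means between 51.9 and 117 at stage 8.

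The brightest fallers at stage 8, besides OLEO3, included a run of neighbouring genes. AT5G38160, AT5G38170 and AT5G38180, neighbours in the genome that belong to the lipid transfer protein superfamily, fell by 1.31, 1.59 and 2.54. AT5G38170 read 3134, 3117 and 3142 at stage 8, 1688, 1746 and 1803 at stage 9 and 1013, 997 and 1098 at stage 10, with differences of -0.84 and -0.75 for the steps. AT5G38160 read 3523, 3201 and 3197, 2263, 2401 and 2339 and 1396, 1371 and 1236 at the same stages. The replicates of AT5G38160 and AT5G38170 were close together and no stages overlapped. LCR69, for a small cysteine-rich protein, read 2525, 2152 and 2471 at stage 8, 1226, 1264 and 1320.2 at stage 9 and 784, 1090.5 and 984 at stage 10 and fell by 1.33, or 0.98 with no call without the arrays of high 25S signal. AT2G34700 read 2128, 2149.8 and 1999.5, 1280.0, 1300.2 and 1304 and 819, 828 and 855 at stages 8, 9 and 10 and had a difference of -1.32 ± 0.07 (adjusted p = 1.8e-13).

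Genes of the cytoskeleton and the cell wall had few calls, all of them downward, although quantile normalization gave 1 cell wall gene that rose. The cell wall calls, 2 of 39, were near the 3.48% that fell among all tested probe sets. Of 11 genes of the tubulin and actin list, which includes the tubulin folding cofactors PFI and POR, TUB6 fell by 1.07 and 10 were not called, with a median of -0.77. TUB6 read 66.7, 65.6 and 68.3 at stage 8, 25.1, 27.6 and 37.8 at stage 9 and 23.5, 26.8 and 35 at stage 10, nearly all of its change in the step to stage 9. TUB5, PFI and ACT11 had differences of -0.99, -0.96 and -0.95, near the limit, and each was called under 5 or 6 alternatives. Of 39 cell wall genes GH9B8, for an endoglucanase, fell by 1.44 and XTH33, for a xyloglucan hydrolase, by 1.07, both at low signals, and neither was called without the arrays of high 25S signal. The median of this list was -0.16. WLIM1, for a LIM protein that binds actin, fell by 2.27, with 59.5, 61.8 and 50.3, 24.1, 20.0 and 24.8 and 3.43, 2.98 and 15.5 at stages 8, 9 and 10. SKU5, for a protein of directional cell expansion, fell by 1.84, and TBL30 and TBL38, of the trichome birefringence-like family, by 1.54 and 1.29, where TBL30 lost its call (-0.88) without those arrays. WLIM1, SKU5, TBL30 and TBL38 were named after their values were seen.

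Other lists had few calls or none. GSTU20, a glutathione transferase gene, read 159, 159.6 and 175 at stage 8, 39.8, 36.8 and 54.9 at stage 9 and 24.7, 24.4 and 26.4 at stage 10 and fell by 2.41 (adjusted p = 2.1e-16), while 29 other antioxidant and redox genes were not called and the list had a median of -0.06. That is 1 call in 30, near the 4.41% called among all tested probe sets. No gene was called among 16 matched for cell division and histones (median -0.08), 4 of them by clone name only, 24 of protein degradation (median -0.07), 9 reference genes (median 0.04), 3 of mRNA processing, and 2 each of the lists for abscisic acid and maturation regulators, fatty acid mobilisation, organellar ribosomal and pentatricopeptide repeat proteins, and endosperm. The maturation regulators EEL and BZIP53, both bZIP transcription factors, had differences of -0.52 ± 0.13 and 0.09 ± 0.09. ICL, for isocitrate lyase, and SDP1, a lipase of oil mobilisation, had 0.22 ± 0.16 and 0.18 ± 0.08. AQI, an interactor of aquaporins and the only tested gene of that list, had -0.76 ± 0.23. Of 23 genes matched as transcription factors the one that fell was GILT, a thiol reductase gene caught by its full name. No transcription factor on this list was called with all arrays. WRKY6, for example, had a difference of 0.74, and of 0.49 to 1.47 over the alternatives. The match by words missed others: the homeobox gene HAT2 and AT3G10040 (HRA1), a transcription factor, were called as fallen but were not on the list. Lists for raffinose sugars and cytosolic ribosomal proteins had no gene with a probe set of its own.

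For the median member of the same-way sets more of the change lay before stage 9 than after it. By stage 9 the median of the 497 same-way fallers had made 63.0% of its change and that of the 131 same-way risers 58.6%. The quartiles were 48.9% and 78.0% for these fallers and 39.7% and 78.1% for these risers. Called probe sets with opposed steps are left out here, which holds each share between none and all of the change. The difference between the steps itself passed the threshold in 1359 probe sets of all tested (8.01%). Of the 497 same-way fallers 76 had the larger step to stage 9, 9 the larger step to stage 10, and 412 did not pass. Of the 131 risers the counts were 6, 3 and 122. By adjusted p alone, with no fold threshold, the steps differed in 192 of the fallers. Of these 164 had the larger step to stage 9 and 28 the larger step to stage 10. In the risers the steps differed in 21, with counts of 17 and 4. That rule was passed by 3321 of all 16967 tested probe sets. Under either rule the share was higher among the 497 fallers than among all tested probe sets, and lower among the 131 risers. Late fallers included BGLU29, another beta-glucosidase gene, at 154, 174 and 171 at stage 8, 143, 151 and 145 at stage 9 and 37.4, 60.8 and 48.2 at stage 10, with steps of -0.17 and -1.48. AT4G13840 (CER26, of wax synthesis) and AT4G16410 were alike, with steps of -0.43 and -1.44 and of -0.05 and -1.44. Among late risers with a gene AT5G06790 had steps of 0.01 and 1.13, at signals no higher than 41.8, and lost its call under 3 alternatives. AT4G28240 was an early riser, with 339, 289 and 353 at stage 8, 872, 674 and 713 at stage 9 and 802, 815 and 818 at stage 10.

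The direction of these genes before stage 8 was read on arrays outside the comparison, which did enter the filter on low signals and the shared estimate of spread. Between stages 7 and 6, 401 of the 497 same-way fallers (80.7%) were lower at stage 7, against 56.6% of all tested probe sets, but only 22 fell by the call rule (4.43%, against 1.06% of all) and 11 rose. Of the 131 same-way risers 15 rose (11.5%, against 2.42% of all) and 2 fell, and 62 were lower at stage 7 (47.3%). The median signal of the fallers was 333, 261, 86.1, 39.4 and 25.9 at stages 6, 7, 8, 9 and 10, and that of the risers 13.6, 18.9, 22.3, 39.9 and 63.1, while over all tested probe sets it lay between 59.7 and 70.7. The fallers were thus bright genes at stage 6, and 242 of them (48.7%, against 22.9% of all tested) were under a signal of 25 at stage 10. Of the risers 67 (51.1%, against 24.3% of all tested) were under 25 at stage 8, so that the offset shrinks their fold. Both counts use arrays on which the sets were chosen.

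For many other probe sets stage 9 did not lie between its neighbours. The difference between the steps passed the threshold upward, as in a dip at stage 9, in 843 probe sets, and downward, as in a peak, in 516. Their steps were of opposite sign in 764 and 501, and 684 and 471 were not called between stages 10 and 8. Among called risers the clearest turns were those of UGT76B1, a glucosyltransferase gene, AT1G55450 and AT5G35735. UGT76B1 read 2.02, 8.82 and 8.93 at stage 8, 45.5, 42.6 and 33.5 at stage 9 and 18.5, 32.8 and 13.7 at stage 10, a peak in which every stage 9 array lay above every other array. AT1G55450 read 2.28, 11.4 and 11.2, 73.3, 84.6 and 68.2 and 34.9, 40.3 and 50.2 at the same stages, and AT5G35735 had means of 21.1, 91 and 52.8. UGT76B1 and AT5G35735 lost their calls in stage 10 against stage 8 with an offset of 28 and without stage 8 replicate A, and UGT76B1 also without stage 10 replicate B.

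Dips at stage 9 included 2 of the 3 tested genes of the response to low oxygen, 1 of which fell between stages 10 and 8. AT3G10040 (HRA1), a transcription factor that dampens this response, read 87.7, 73.3 and 114 at stage 8, 2.11, 18.9 and 1.14 at stage 9 and 32.6, 46.4 and 34.3 at stage 10. Its total of -1.13 ± 0.28 was called but came to -0.59 without the 4 arrays of high 25S signal, while its steps were -2.97 and 1.84. AT4G10270, of the same list, read 1729, 1520.4 and 1566, 124, 134 and 114 and 789.5, 926 and 729.5 at stages 8, 9 and 10, with steps of -3.62 and 2.64. PDC2, for pyruvate decarboxylase of fermentation and the other tested gene of the list, had means of 719, 1121 and 1335 and did not dip. AT1G19210 read 106, 171 and 158 at stage 8, 2.11, 11.9 and 3.1 at stage 9 and 43.5, 49.2 and 51.3 at stage 10, and AT1G18740 had means of 354, 52.2 and 154. GILT fell by 5.37, the largest change of any probe set tested in this comparison, with 1982, 1807 and 1726 at stage 8, 32, 28.9 and 29.2 at stage 9 and 35.4, 46.3 and 32.6 at stage 10, so that its whole drop came before stage 9. The spiked-in control dap also read highest at stage 9: its signal was 2599 ± 249.6, 3737 ± 111 and 3055 ± 231 at stages 8, 9 and 10 (SD, n = 3), and its part in the dips and peaks was not tested.

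**Figure D5:**
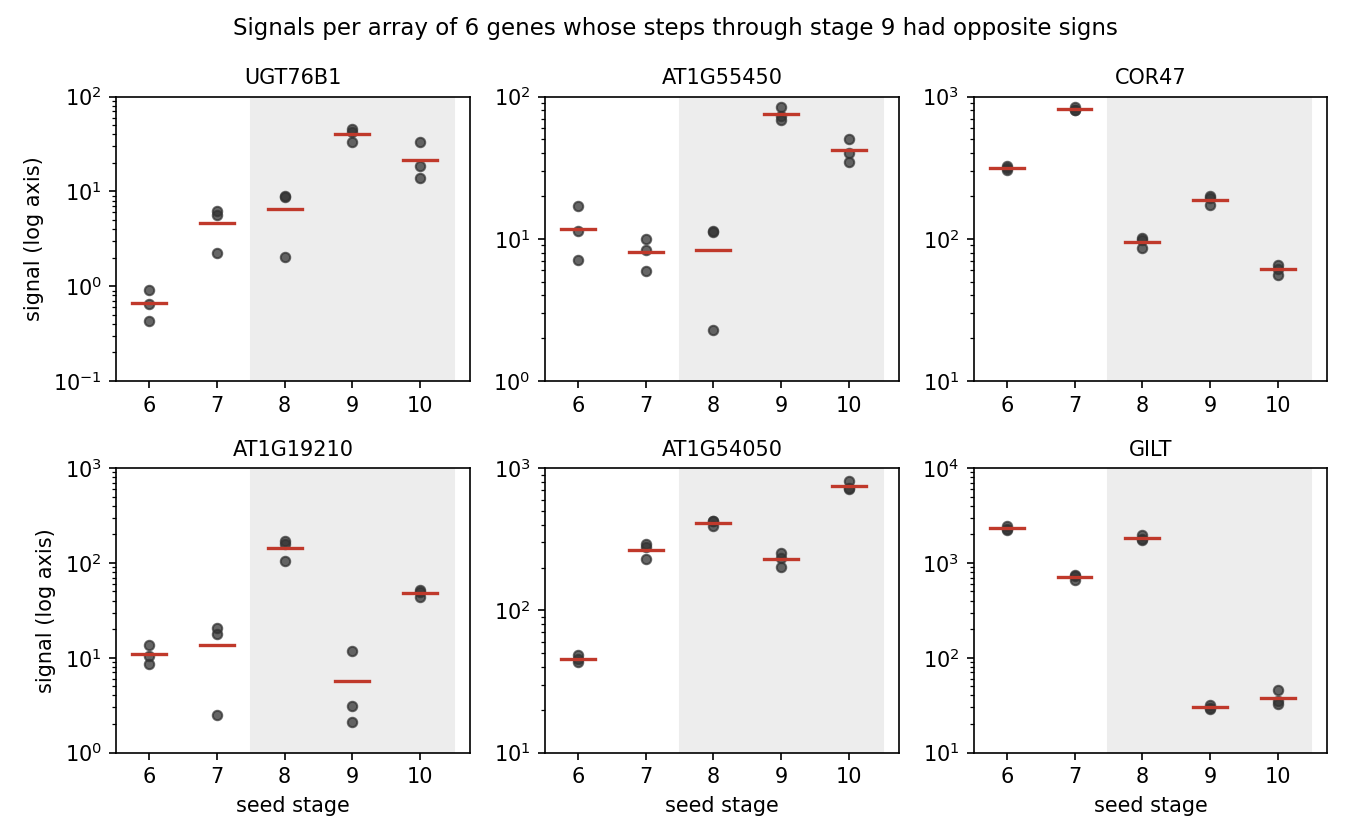
Signals on each array (points, log axis) and their means (bars) at seed stages 6 to 10 for 6 genes whose steps to stage 9 and to stage 10 had opposite signs, with stages 8 to 10 shaded. UGT76B1, AT1G55450 and COR47 were higher at stage 9 than at stages 8 and 10, AT1G19210 and AT1G54050 were lower there, and GILT dropped to stage 9 and stayed low.

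Some neighbouring genes were called together. Among 3354 pairs of tested genes that follow each other on a chromosome, 2 pairs rose together, namely AT1G14930 with AT1G14940 and AT2G43580 with AT2G43590, 9 fell together and 1 went opposite ways. The pairs that fell together included AT5G38160 with AT5G38170 and AT5G38170 with AT5G38180. In 249 other pairs only 1 gene was called. Among all tested probe sets 0.937% rose and 3.48% fell. Whether neighbours were called together more often than these shares give was not tested. Probes of neighbours called together may be shared where the genes are recent copies, and whether they are could not be checked with the annotation used here.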

How the data were processed

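Linear signal intensities were deposited by the authors, and MAS5 is the software named in the submitters' processing notes, without a version. On each array the mean of the middle 96% of signals was 100, within 0.05. The deposited table holds no detection calls, so low signals are not marked as absent; precision is limited by the small number of arrays.

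Groups were taken from the tissue labels. Of 22810 probe sets 64 controls were left out, and 16967 were tested, those that exceeded the 40th percentile of signals on 3 or more of the 24 arrays. Intensities were used as log2(signal + 7). The test was that of limma 3.58.1 under R 4.3.3 (a mean for each group over all 24 arrays, trended eBayes variance, residual degrees of freedom 16), with Benjamini-Hochberg adjustment over all 16967. A probe set was called at an adjusted p under 0.05 and a change of at least 2-fold. Signals carry their SD and log2 differences their SE. On simulated data with 16967 probe sets 100% of 4-fold changes were called, 56% of 1.5-fold changes passed the adjusted p and 0% of them were called.

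In the platform annotation 13513 probe sets have 1 gene, 503 have several and 8794 have none, so 7575 tested probe sets have no name here. Names, and which genes neighbour each other, come from the RefSeq gene list for the assembly TAIR10.1, matched for 13436. No table of sequences was used here, so no promoters or proteins were analysed. Members and lists were chosen with earlier results of these data known. The 24 gene lists were matched by locus and by words in gene symbols and synonyms, which also caught GILT among transcription factors, PFI and POR among tubulins, CCS among chaperones, AQI among aquaporins, and AT5G17930, AT5G17960, AT5G17980 and VDD among cell division genes. Lists use the brightest probe set of a gene. Counts of genes and of probe sets called were the same in all 22 lists with a tested gene. Genes named are the 12 highest and 12 lowest same-way changes whose stage 10 and stage 8 arrays do not overlap (true of 37.3% of tested probe sets), up to 4 per list by size of change, the 3 most uneven and 3 most reversed in each direction, and the 5 brightest risers and fallers. Others are said to have been named after their values were seen. Alternatives changed the offset, normalization, filter, arrays fitted, letter block and fold threshold, and left out single arrays or, chosen after seeing the data, the 4 arrays with a 25S signal over 1000. Tables were summarised with pandas and figures drawn with matplotlib (Python).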

Additional observations from a re-analysis of the deposited data

How the results depend on the processing

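With all arrays and an offset of 7, 159 probe sets rose and 590 fell between stages 10 and 8, 131 and 497 of them the same way in both steps, and the steps differed in 1359. With no offset 337 rose and 257 did so in both steps. With an offset of 28, 54 rose and 275 fell, 46 and 241 in both steps, and the steps differed in 569. With no filter 253 rose, 212 in both steps. With no fold threshold 2504 rose and 2894 fell, 1722 and 2012 in both steps, and the steps differed in 3321. A fit on stages 8 to 10 alone gave 812 probe sets whose steps differed. Without the 4 arrays of high 25S signal, which leaves 1 array at stage 8 and 1 at stage 10 assumed to vary like the other groups, 355 rose, 305 in both steps, of which 77 were among the 131, while 369 of the 497 same-way fallers stayed in that set; the cause was not tested. Leaving out single arrays gave 160 to 221 risers, 590 to 654 fallers, 126 to 180 and 478 to 546 that went the same way in both steps, and 1338 to 1466 with differing steps. The title letter as a replicate block over seeds stages 6 to 10 gave 166 risers and 601 fallers, 139 and 515 in both steps, and 1125 with differing steps. Arrays of the same letter share only that letter: their deviations from the group means correlated between -0.028 and 0.029, and among the seed arrays D occurs on 1 alone, so the block is no paired design. Of 59 called probe sets named by rule, 39 kept their call under every alternative, 16 lost it with an offset of 28 and 9 without the 4 arrays; no named one changed sign with a call. Of those not called 15 gained a call under at least 1 alternative. Rises made up 21.2% of calls, and 18.8%, 17.1% and 25.3% with quantile normalization and with centring on the reference genes or the 75th percentile. Dim genes limit the rest: no fold of a gene near the lowest signals is firm.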

Other observations

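A few further called genes with a symbol had clear courses that belong to no list above, and were picked after their values were seen. AOP3, of glucosinolate side chain synthesis, fell by 1.88 in nearly equal steps, with 612 ± 13.9, 317 ± 2.92 and 161 ± 4.44 at stages 8, 9 and 10 (SD, n = 3). The subtilase gene SBTI1.1 fell by 1.78, most of it after stage 9, with 71 ± 4.18, 47.8 ± 22.9 and 19.9 ± 15.5. The carboxypeptidase-like gene scpl20 fell by 2.40, most of it before stage 9, with 293 ± 32.4, 71.5 ± 1.46 and 50.1 ± 7.47. TOPII, for DNA topoisomerase II, fell by 1.59 to 1.41, 2 and 0.959 at stage 10, against 17.2, 16.6 and 21.6 at stage 8, and lost its call with an offset of 28. TROL, for a thylakoid protein of the rhodanese-like type, fell by 1.43. HAT2, a homeobox gene of auxin responses, fell by 1.40 and kept its direction in both steps, with 89.3, 42.6 and 29.8. ATL8, a RING finger gene, was level until stage 9, at 274 ± 12.1 at stage 8 and 293 ± 51.5 at stage 9, and was lower by 2-fold or more at stage 10, at 121 ± 9.36, a difference of -1.14 ± 0.11.

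AT4G15750 had the largest fall after GILT and AT1G56100 among probe sets with a named gene, and its steps were of opposite sign. It read 917, 1362 and 1182 at stage 8, 50.2, 41 and 49.9 at stage 9 and 51.6, 57.3 and 53.2 at stage 10, a difference of -4.23 ± 0.11 (adjusted p = 2.1e-19), with the whole drop before stage 9. AT2G07739, on a probe set that may read similar copies, had 35.4 ± 4.04, 122 ± 29.7 and 122 ± 35.4 at the same stages and rose by 1.56 ± 0.22, with its whole change before stage 9. AT1G14960, near AT1G14930 and AT1G14940 in locus number, rose at far lower signals, with 22.9, 19.5 and 24.4 at stage 8, 51.6, 38.3 and 45.6 at stage 9 and 36.6, 70.2 and 55.5 at stage 10, and lost its call under 5 alternatives. All genes of these paragraphs were named after their values were seen, and no explanation for them was tested.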
